A study of Macaca mulatta with 95 samples.

Results

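Histone genes, canonical and replacement, were followed through 95 single cells of rhesus macaque (Macaca mulatta) embryos, from the 16-cell stage to the hatched blastocyst. Members were taken by gene symbol alone. The prefixes HIST1, HIST2, HIST3 and HIST4 gave 65 canonical genes, and H1F, H2AF and H3F gave 11 replacement genes, with H3F3C left out by the rule. These 76 genes stand among 16049 in the table. H3F3A and H1FOO are not analysed here, so H3F3B was the only member that encodes the replacement histone H3.3.

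All embryos came from oocytes of hormone-stimulated females, were fertilised and cultured without any genetic change or treatment that differs between groups, and were taken apart after a dye had marked the live outer cells. A cell that carried no dye was called inner. The 16-cell stage (16C, day 3, title letter B) gave 3 cells labelled outer and 2 labelled inner. The early morula (EM, day 4, letter H) and the late morula (LM, day 4.5, letter D) gave 5 of each. The early blastocyst (EB, day 5) gave 6 outer and 5 inner cells of letter A, 3 inner of letter G and 2 inner of letter H. The middle blastocyst (MB, day 5.5) gave 5 outer and 4 inner cells of letter B, 4 inner of letter G and 4 inner of letter H. The late blastocyst (LB, day 6) gave only inner cells, 15 with letter G and 4 with letter H, and so did the hatched blastocyst (HB, day 7), with 9 for each of these letters. The labels do not explain the 5 letters, which go with stage at the morula stages and split the inner cells of every blastocyst stage, so stage and letter cannot be told apart between the 16-cell stage, EM and LM.

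Canonical histones are made in S phase, when newly copied DNA is wrapped into nucleosomes built of H2A, H2B, H3 and H4 and closed by the linker histone H1. Their mRNAs mostly end in a stem-loop in place of a poly(A) tail, although some canonical genes can also give polyadenylated transcripts, for instance in cells that leave the cycle. Replacement histones such as H2A.Z, H3.3 and macroH2A come from polyadenylated mRNAs made through the whole cycle, are put into chromatin by their own chaperones, and mark promoters, active genes or silent chromatin such as the inactive X. The RNA here is labelled as polyA RNA, so a canonical value describes the transcripts that such a library captures and not all histone mRNA of the cell.

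The values are reads per kilobase and per megaread (RPKM), a scale on which levels of different genes can be set side by side. Reads recovered from the values ran from 1.06 to 11.8 megareads per cell with a median of 6.17, lowest in LM with group medians of 2.25 (outer) and 3.13 megareads (inner). No label names the embryo, animal or culture of a cell. Each group therefore counted as 1 sample, no comparison carries a test, and an SD is the spread from cell to cell. A log2 difference is taken between group means after adding 1 RPKM. Genes count as measured when the mean of one group or the other reaches 5 RPKM. A gene is called higher or lower when its means, with that 1 RPKM added, differ at least 2-fold. The highest correlation between a pair of cells was 0.910 and 0 pairs of columns were identical. Cumulus cell genes summed to at most 10.5 RPKM in a cell, with PTX3 and FSHR at 0 in all cells, and sperm and testis genes to at most 8.95 RPKM, with PRM1, PRM2 and TNP1 at 0 in all.

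Detection in every cell was limited to 6 of the 11 replacement genes, and their levels still varied between groups. H2AFZ, H3F3B, H2AFY, H2AFX, H2AFV and H2AFJ were above 0 in all 95 cells, and 0 canonical genes were. H2AFZ, which encodes H2A.Z, had the highest mean over the 18 groups at 637 RPKM, and made up 46.2% of the summed replacement level on average over the cells. H3F3B followed at 295 RPKM, H2AFY (macroH2A1) at 163, and H2AFX, whose H2A.X protein is phosphorylated at DNA breaks, at 104. H2AFV, the second H2A.Z gene, averaged 33.4 RPKM and H2AFJ 10.0 RPKM. The linker gene H1F0, known from non-dividing and differentiating cells, averaged 2.74 RPKM and was highest in HB letter G, at 20.9 RPKM. H2AFB3, of the short H2A family known from testis, reached 96.8 RPKM in 1 outer LM cell, which held 93.8% of its summed level. H1FX, H2AFY2 and H1FNT stayed under 5 RPKM in every group mean.

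Canonical genes were uneven. Of the 65, 19 were listed at 0 in every cell, 32 were above 0 in 1 to 19 cells, and 26 reached 5 RPKM in at least 1 group mean. By type, 4 of 6 H1 genes, 8 of 16 H2A, 7 of 18 H2B, 3 of 12 H3 and 4 of 13 H4 genes reached that level. The mean over groups was led by the H2B gene HIST1H2BK (208 RPKM), the H2A genes HIST3H2A (155) and HIST2H2AA4 (143), and the linker gene HIST1H1C (62.9), with the H4 genes HIST1H4C (36.3) and HIST1H4H (19.2) next. The first 4 of these made up 67.5% of the summed canonical level on average over the cells.

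Histone types, core and linker, were far from equal among the canonical members. Summed over the genes of a type, the mean over the 95 cells was 310 RPKM for H2B, 300 RPKM for H2A, 78.4 RPKM for H1 and 73.9 RPKM for H4, but 4.33 RPKM for H3. Canonical H3 was above 0 in 36 cells and never over 60.8 RPKM, while H3F3B alone averaged 302 RPKM over the 95 cells. How reads were shared between similar copies of a type is not given in the sources used here. HIST1H3A, HIST1H3D and HIST1H3J, for example, match the same RefSeq name, H3C1. The sums by type, low H3 included, carry that limit.

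Detection of most other canonical genes was scattered over single cells. Of the 26 that reached 5 RPKM in a group mean, 13 were above 0 in fewer than 20 cells and 6 had over 50% of their summed level in 1 cell. These 6 were the H2A genes HIST1H2AL and HIST1H2AI, the H2B gene HIST3H2BB and the H3 genes HIST2H3D, HIST2H3A and HIST1H3B. HIST1H2AL, for example, had 63.8% of its level in 1 outer EB cell at 176.8 RPKM. HIST1H2BK, HIST3H2A and HIST2H2AA4 were above 0 in 91, 93 and 87 cells, HIST1H1C in 74, HIST1H4C in 68 and HIST1H4H in 34. A cell held on average 5.92 canonical members at 5 RPKM or more, between 0 and 14.

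Near-identical copies limit what a single H2A symbol stands for. HIST2H2AC stood at a median of 4.92% of HIST2H2AA4 in the 43 cells where the latter was at 50 RPKM or more, with quartiles of 4.39% and 5.67%. The ratio of these sister genes was thus narrow across stages, and how reads were shared between them is not given in the sources used here. HIST1H2BJ, at a median of 3.73% of HIST1H2BK in 50 such cells, varied more, with quartiles of 1.61% and 7.95%.

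**Figure D1:**
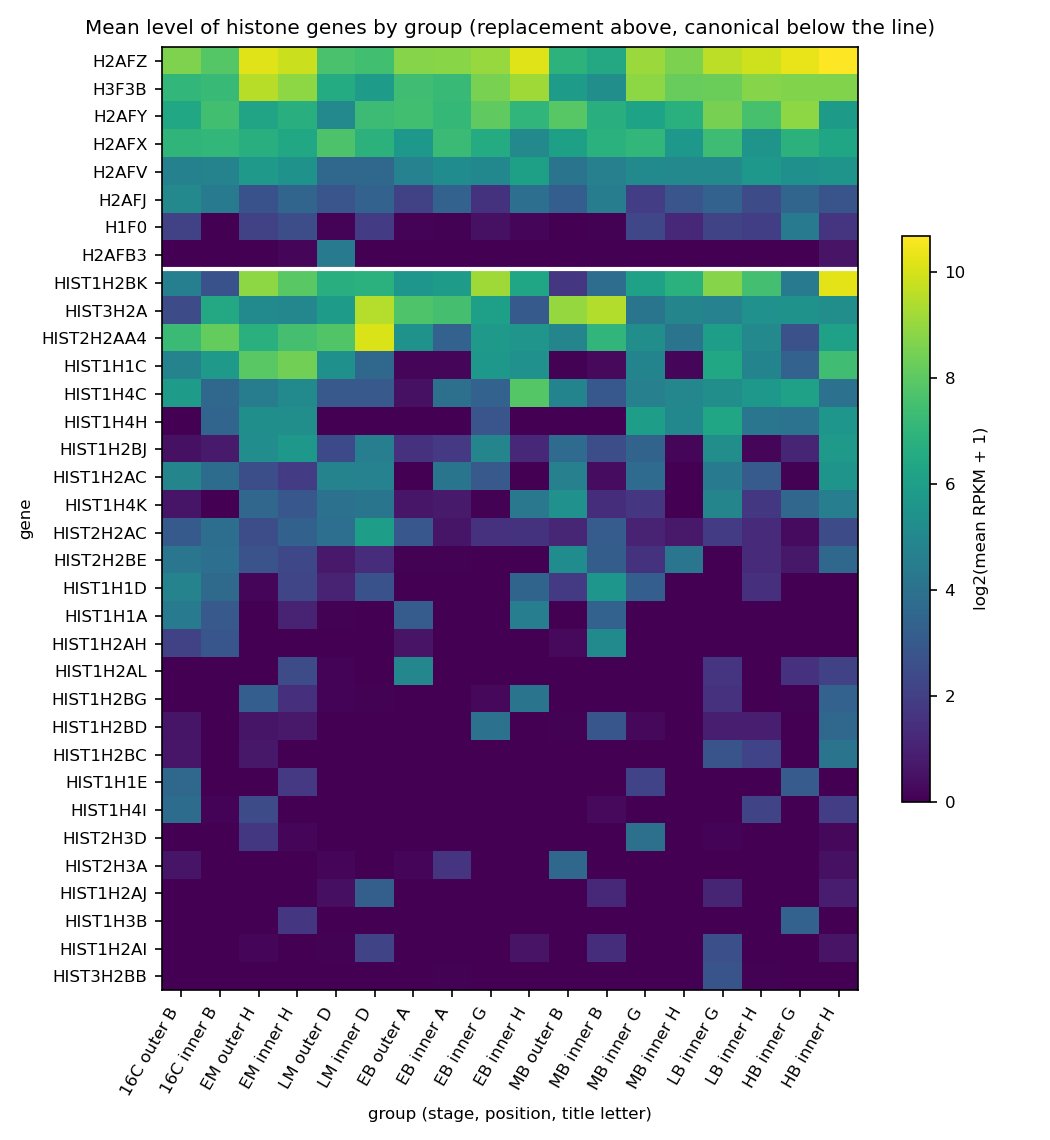
Group means of the 34 histone genes that reached 5 RPKM in at least 1 group, as log2(mean RPKM + 1), with canonical and replacement genes in blocks and the 18 groups ordered by stage, position and letter. H2AFZ (mean over groups 637 RPKM) and H3F3B, but also the canonical HIST1H2BK, HIST3H2A and HIST2H2AA4, are above 0 in every group, while HIST1H4H, HIST1H1E and the replacement gene H2AFB3 are listed at 0 in whole groups.

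Canonical and replacement sums followed different courses over the stages. The replacement sum averaged 775 ± 107 RPKM (SD, n = 5) at the 16-cell stage, 1877 ± 413 (n = 10) in EM, 548 ± 267 (n = 10) in LM, 1098 ± 467 (n = 16) in EB, 744 ± 407 (n = 17) in MB, 1686 ± 479 (n = 19) in LB and 2308 ± 546 (n = 18) in HB. The canonical sum averaged 448 ± 153, 991 ± 856, 1287 ± 1217, 434 ± 476, 558 ± 516, 736 ± 909 and 966 ± 1041 RPKM at the same stages. From EM on, cells of 1 stage differed several-fold in the canonical sum, and over all 95 cells it ran from 6.62 to 4031 RPKM.

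The canonical share, the canonical sum as a percent of all histone RPKM of a cell, had a median of 28.5% over the 95 cells and a range from 0.649% to 88.6%. Inner LM cells had the highest group mean, at 76.4% ± 14.7 (SD, n = 5), between 53.1% and 88.6%. Inner MB cells of letter B followed at 66.2% ± 19.8 (n = 4) and hatched cells of letter G were lowest at 7.37% ± 3.62 (n = 9). The share rests on few genes: without HIST1H2BK the mean of hatched letter H cells was 20.5% in place of 42.7%.

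**Figure D2:**
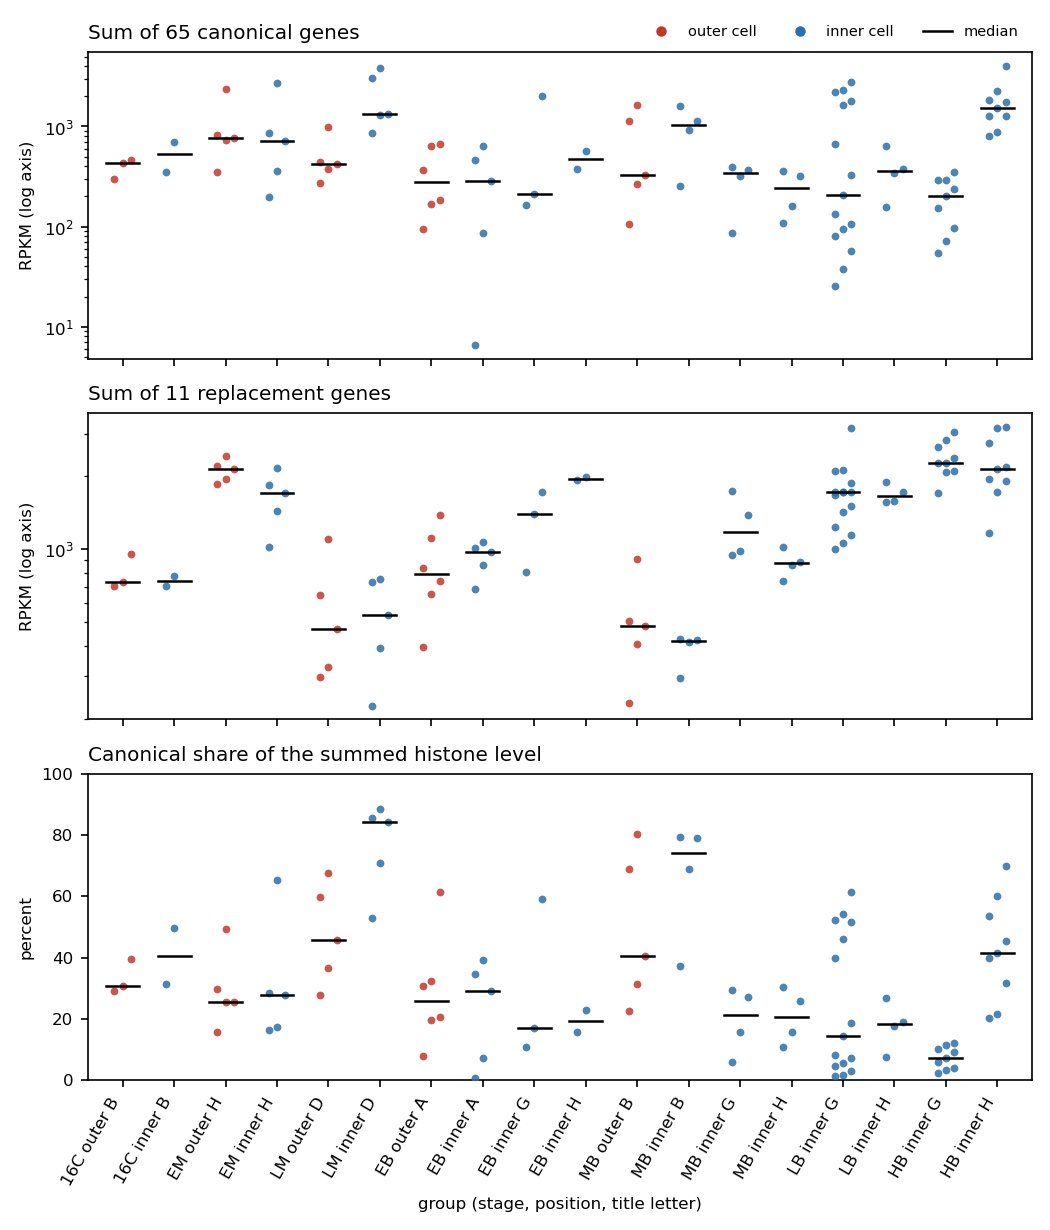
Canonical sum and replacement sum (RPKM, log axes) and canonical share (percent) in each of the 95 cells by group, with outer cells in red, inner cells in blue and a line at the group median. Inner LM cells lie at shares of 53.1% to 88.6% and HB letter G cells at 2.54% to 12.2%.

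Between the 16-cell stage and EM, HIST1H2BK, HIST1H1C and H3F3B were higher and a set of other linker and H2A genes was lower. HIST1H2BK was at 22.2, 7.45 and 41.5 RPKM in outer and 8.77 and 2.02 RPKM in inner 16-cell cells, and at 1428, 313, 222, 190 and 168 RPKM in outer and 291, 145, 395, 10.5 and 380 RPKM in inner EM cells. All but 1 EM cell stood above every 16-cell cell, and the log2 difference of the means was 4.35 (3.76 without outer EM cell H-02, 5.00 without outer 16-cell cell B-09). HIST1H1C averaged 296 RPKM in EM, between 17.8 and 1159, against 37.5 RPKM, between 2.64 and 71.4, a log2 difference of 2.95 with overlap. H3F3B averaged 605 against 142 RPKM with no overlap (324 to 1000 in EM, 97.7 to 177 at the 16-cell stage), a log2 difference of 2.09 (1.15 under median-of-ratios scaling). H2AFZ averaged 1029 against 329 RPKM, a log2 difference of 1.64 that was 0.74, under 2-fold, with that scaling, which moved the all-gene median from 0.64 to -0.71. HIST1H2BJ was at 0 to 1.15 RPKM in the 5 cells of the 16-cell stage and at 0.674 to 105 RPKM in the 10 EM cells, where only inner cell H-05 reached into the lower range.

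The lower set held the linker gene HIST1H1D, at 19.6 and 4.03 RPKM in inner and 40.1, 19.7 and 20.2 RPKM in outer 16-cell cells. In EM it was listed at 0 in 7 of 10 cells and reached 18.3 RPKM in 1. The H2A gene HIST1H2AC averaged 3.78 RPKM in EM against 21.8 RPKM at the 16-cell stage, a log2 difference of -2.25, which was -1.60 without outer 16-cell cell B-01 at 55.0 RPKM. H2AFJ averaged 7.76 against 27.5 RPKM, a log2 difference of -1.70.

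The leading canonical genes of LM were not those of EM. HIST3H2A averaged 386 RPKM in LM against 31.4 RPKM in EM, a log2 difference of 3.58, and HIST2H2AA4 652 against 147 RPKM, a difference of 2.14 (2.94 without inner EM cell H-04). HIST1H1C averaged 25.9 against 296 RPKM, a log2 difference of -3.46 (-5.32 without outer LM cell D-05 at 202 RPKM, -0.47 under median-of-ratios scaling). H3F3B averaged 77.2 against 605 RPKM with no overlap (6.04 to 266 in LM), a log2 difference of -2.95 that was -0.27 under the same scaling. H2AFZ averaged 184 against 1029 RPKM (-2.48), H2AFV 11.0 against 48.1 (-2.03) and HIST1H2BK 110 against 354 (-1.67), but all 3 turned positive under it (0.26, 0.43 and 1.13). HIST1H2BK stood at -2.28 without inner LM cell D-07 and at -1.08 without outer EM cell H-02. That scaling moved the median of all measured genes from -0.92 to 2.02 here, and the replacement sum from -1.77 to 0.89. Relative to the all-gene median, H2AFZ, H3F3B and H2AFV were lower and HIST3H2A and HIST2H2AA4 higher under both.

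Letter B was present at both the 16-cell stage and MB, which gives a stage comparison within 1 letter. HIST1H1C was at 2.64 to 71.4 RPKM in the 5 cells of the 16-cell stage and at no more than 0.696 RPKM in the 9 MB cells, with no overlap. HIST3H2A averaged 591 against 37.3 RPKM, a log2 difference of 3.95 (5.69 without inner 16-cell cell B-01 at 145 RPKM). H3F3B averaged 48.9 against 142 RPKM (-1.52) and H2AFZ 106 against 329 RPKM (-1.63), but under median-of-ratios scaling these were -0.02 and 0.19. The canonical sum differed by 0.87 and the replacement sum by -0.77 on the log2 scale, against 3.15 and 1.21 with that scaling, which moved the all-gene median from -0.45 to 1.60.

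Hatched cells could be set against earlier inner cells of their own letter. Within letter H, HIST1H2BK averaged 1211 RPKM at HB against 244 RPKM in inner EM, with no overlap (lowest 565, median 1102, highest 3128 RPKM at HB) and a log2 difference of 2.31. HIST1H2AC averaged 45.7 against 2.63 RPKM, a log2 difference of 3.69 (5.13 without inner EM cell H-02). Within letter G, the canonical sum averaged 194 RPKM at HB and 803 RPKM in EB, a log2 difference of -2.04 that was 0.04 without EB cell G-11. The replacement sum of letter G was higher at HB, 2371 against 1305 RPKM, by 0.86 on the log2 scale.

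Position was compared within stage and letter. At the 16-cell stage, with 3 outer and 2 inner cells, the canonical sum differed by -0.41 (outer minus inner, log2) and the replacement sum by 0.10. In EM, 1 of 11 measured canonical genes (the H2B gene HIST1H2BG) was higher in outer cells, beside 16.1% of all measured genes, and 0 were lower, beside 9.12%. With 1 cell left out, 1 to 5 canonical genes were higher and 0 to 3 lower. The canonical sum of EM differed by 0.05 (-0.54 without outer cell H-02, 0.92 without inner cell H-04) and the replacement sum by 0.37.

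In LM, canonical histone RNA was higher in inner than in outer cells while the replacement sum was close. Lower in outer cells were 6 of 11 measured canonical genes, beside 26.9% of all genes, and 1 was higher, beside 31.2%. HIST3H2A was at 34.8, 2.17, 8.58, 232 and 14.5 RPKM in outer cells and at 523, 476, 1157, 604 and 812 RPKM in inner cells. Every inner cell stood above every outer cell, and the log2 difference was -3.59 (-5.48 without outer cell D-06). HIST2H2AA4 was at 837, 19.2, 38.3, 94.9 and 122 RPKM in outer and at 301, 2283, 1969, 485 and 370 RPKM in inner cells. Only outer cell D-01 reached into the inner range, and the log2 difference was -2.28, or -3.96 without it. HIST2H2AC followed at -2.07 (-3.57 without D-01), with the limit on near-identical copies given above.

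Among replacement genes of LM, H2AFY was at 57.3, 35.9, 29.8, 19.2 and 18.8 RPKM in outer and at 109, 62.7, 187, 263 and 169 RPKM in inner cells. The groups did not overlap, and the log2 difference was -2.26. The canonical sum averaged 498 ± 278 RPKM in outer and 2077 ± 1303 RPKM in inner cells (SD, n = 5 each; log2 -2.06), and the replacement sum 569 ± 329 and 528 ± 225 RPKM (0.11). Relative depth differed beside this, with medians of 0.260 in outer and 0.391 in inner cells, and its part in the result was not tested.

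In EB of letter A, 4 of 8 measured canonical genes were higher in outer cells, beside 29% of all genes, and 2 were lower, beside 32.7%. HIST2H2AA4 was at 0.918 to 118 RPKM (median 22.1) in the 6 outer cells and at 3.98, 4.09, 3.27, 35.3 and 0.524 RPKM in the inner cells. The ranges overlapped, and the log2 difference was 2.08 (1.49 without outer cell A-06, 3.48 without inner cell A-10). HIST2H2AC differed by 2.28, or by 0.90 without outer cell A-06 and by 0.82 between medians. The direction for HIST2H2AA4 was thus opposite to that in LM, and the difference between the stages was not tested.

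In MB of letter B, 6 of 14 measured canonical genes were higher in outer cells, beside 36.3% of all genes, and 7 were lower, beside 24.7%. HIST2H2AA4 was at 0.797, 1.38, 0, 76.4 and 61.5 RPKM in outer and at 112, 165, 86.5 and 159 RPKM in inner cells. The groups did not overlap, and the log2 difference was -2.18 (-2.96 without outer cell B-06). HIST2H2AC also did not overlap, at 1.22 against 7.74 RPKM (-1.98). HIST1H2AH, another H2A gene, was at 62.8, 63.2, 2.37 and 0.739 RPKM in inner cells and averaged 0.195 RPKM in outer cells. The canonical sum differed by -0.49 (-1.10 without outer cell B-06).

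H2AFY turned the other way in MB, at 116, 224, 0.724, 230 and 614 RPKM in outer and at 30.4, 118, 174 and 109 RPKM in inner cells. These overlapped, and the log2 difference of 1.13 became 0.40 without outer cell B-07 and 0.97 between medians. The inner cells of MB letter B go against their label in 1 respect, since trophectoderm markers summed to 12996 to 21760 RPKM in them, within the 730 to 27449 RPKM of the outer cells. Inner cells of letters G and H held 462 to 1607 and 96.6 to 1618 RPKM. The sum does not stand for each marker. In the inner letter B cells the keratin gene KRT18 alone was at 18218, 9577, 12456 and 6501 RPKM. GATA2, a trophectoderm gene, was at 1.87, 0.447, 33.0 and 2.75 RPKM in them. It was at 102, 7.89, 0.229, 189 and 153 RPKM in the outer cells. Results that rest on the inner letter B cells carry the limit of these marker values.

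**Figure D3:**
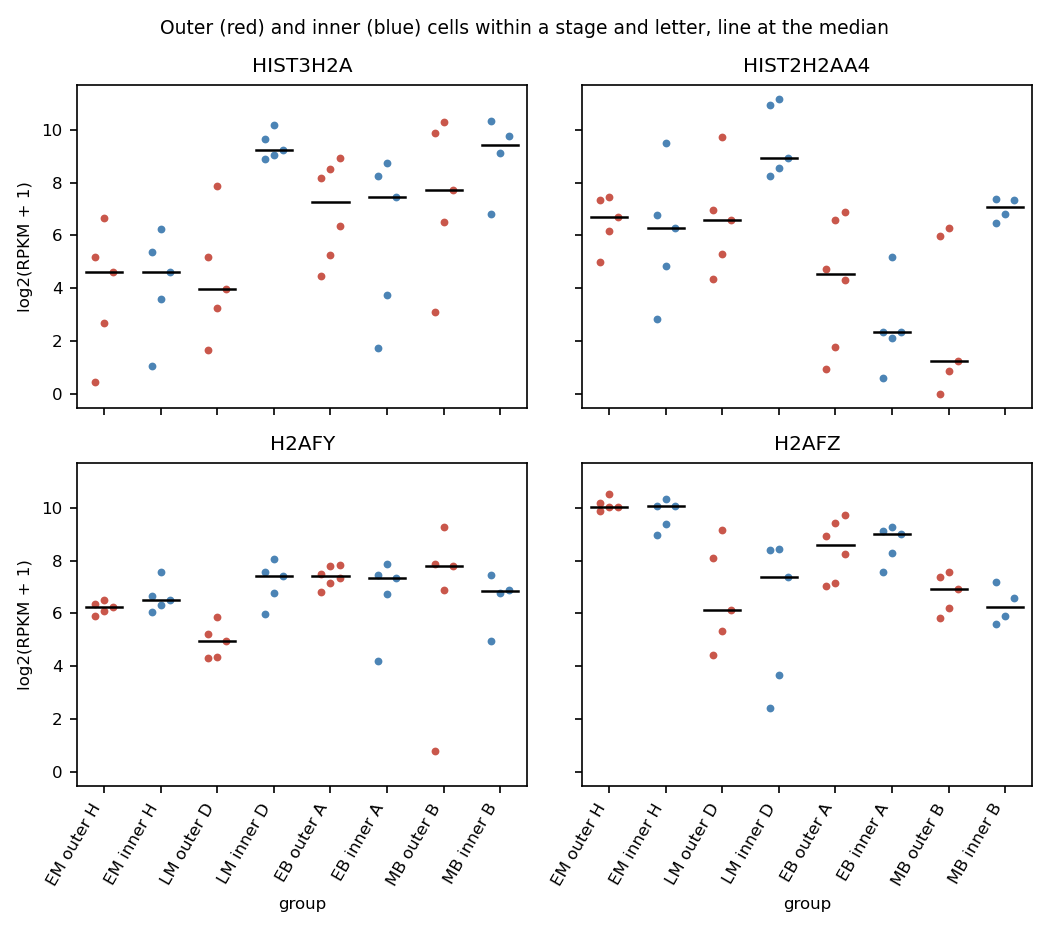
Levels of HIST3H2A, HIST2H2AA4, H2AFY and H2AFZ, as log2(RPKM + 1), in each outer and inner cell of EM, LM, EB letter A and MB letter B, with a line at the median. HIST3H2A and H2AFY separate outer from inner cells in LM, and HIST2H2AA4 does so in MB.

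Inner cells of the same stage could be compared between letters. In EB, 9 of 11 measured canonical genes were higher in letters G and H than in letter A, beside 45% of all genes, and 2 were lower, beside 28.5%. Between medians, 3 were higher. Some of the higher genes rest on 1 cell of letters G and H. HIST1H1A and HIST1H2BG were at 45.6 and 32.2 RPKM in cell H-05, HIST1H2BD at 43.5 RPKM in G-11 and HIST1H4K at 37.0 RPKM in H-03. Each was at most 0.563 RPKM in the other cells of these 2 letters. HIST1H1C was at 150, 0.337 and 0.415 RPKM in letter G and 23.6 and 60.2 RPKM in letter H, and at most at 0.383 RPKM in letter A. HIST1H4C averaged 98.2 against 14.4 RPKM (log2 2.69), carried by the letter H cells at 301 and 163 RPKM, and stood at 1.66 without cell H-03 and 3.82 without inner cell A-07. HIST3H2A was the reverse, at 127, 62.3 and 1.23 RPKM (G) and 10.7 and 3.39 RPKM (H) against 428, 172, 12.2, 305 and 2.27 RPKM (A), a log2 difference of -2.14 with overlap (-3.18 without cell G-11).

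H3F3B was at 376, 229 and 519 RPKM (G) and 460 and 673 RPKM (H) against 225, 188, 182, 124 and 5.5 RPKM (A) in EB. The cells did not overlap, and the log2 difference was 1.63, but -0.44 under median-of-ratios scaling. The canonical sum, higher by 1.19 in letters G and H, stood at 0.18 without cell G-11 and was lower (-0.35) under that scaling, which moved the all-gene median from 0.62 to -1.34. With it, 33.1% of all genes called were higher, in place of 61.2%.

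In MB, letter B cells had high HIST3H2A and low H3F3B and H2AFZ, and letters G and H the opposite. Of 14 measured canonical genes, 6 were higher in letters G and H, beside 55% of all genes, and 7 were lower, beside 24.4%. HIST3H2A was at 549, 1272, 110 and 869 RPKM in letter B, at 0.571, 0.254, 65.7 and 0.266 RPKM in letter G and at 37.6, 6.10, 18.3 and 49.7 RPKM in letter H. No cell of letters G or H reached the lowest of letter B, and the log2 difference was -4.91. HIST2H2AA4 averaged 27.4 against 130 RPKM, a log2 difference of -2.21 with overlap (-2.88 without cell G-02), and HIST2H2AC 0.857 against 7.74 RPKM, a difference of -2.23 without overlap. HIST1H4H was listed at 0 in all 4 cells of letter B and reached 94.2 and 152 RPKM in 2 cells of letter G and 125 RPKM in 1 of letter H.

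H3F3B in MB was at 32.7, 3.75, 107 and 8.12 RPKM in letter B, and between 169 and 586 RPKM in the 8 cells of letters G and H. The log2 difference was 3.31 without overlap (4.60 without letter B cell B-05). H2AFZ was at 146, 47.5, 94.2 and 58.7 RPKM in letter B and between 193 and 924 RPKM in the others, a log2 difference of 2.40 without overlap. Under median-of-ratios scaling H3F3B differed by 1.60 and H2AFZ by 0.79, the latter under 2-fold. H2AFJ was lower in G and H, at 4.49 against 21.4 RPKM (-2.02). These values stand beside an all-gene median of 1.53, which that scaling moved to -0.56. With it the replacement sum turned from 1.45 to -0.24, 4 canonical genes were higher and 10 lower, and 45.1% of all genes called were higher in place of 69.3%. The trophectoderm sums given above move with these letters. Letters G and H also differed from each other. GATA4, a hypoblast gene, was at 133, 141, 103 and 111 RPKM in letter G, at 0 in every letter H cell and at most at 0.0553 RPKM in letter B. The part of these markers in the result was not tested.

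In LB, 0 of 12 measured canonical genes were higher in letter H than in letter G, beside 27.5% of all genes, and 8 were lower, beside 22.1%. With 1 cell left out, up to 1 was higher. By source name, all letter H cells and some letter G cells of LB were hatched. The comparison is thus within 1 stage by title only. HIST1H2BK was at 373, 130, 104 and 117 RPKM in letter H and had a lowest value of 0, a median of 146 and a highest of 1838 RPKM in letter G. The letter H cells lay inside the range of letter G, and the log2 difference of -1.25 was -0.24 between medians, -0.86 without cell G-09 and -1.87 without cell H-03. H2AFX was at 49.1, 45.2, 63.8 and 21.7 RPKM in letter H and between 3.55 and 334 RPKM (median 168) in letter G, a log2 difference of -1.83 with overlap. HIST1H2BJ stayed at or under 0.269 RPKM in letter H and reached 183 RPKM in letter G. The canonical sum differed by -1.14 between means and by 0.78 between medians, and under median-of-ratios scaling 11.3% of all genes called were higher, in place of 55.4%.

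In HB, canonical transcripts were much higher in letter H than in letter G at close replacement sums. Of 15 measured canonical genes, 11 were higher in letter H, beside 20.9% of all genes, and 3 were lower, beside 24.1%. Their median log2 difference was 3.29, beside -0.06 for all measured genes. Without letter H cell H-11, 9 canonical genes were higher. HIST1H2BG and HIST2H2BE were at 82.0 and 84.6 RPKM in that cell, and at most 0.693 and 12.4 RPKM in the other letter H cells. HIST1H2BK had a lowest value of 565, a median of 1102 and a highest of 3128 RPKM in letter H, and 0.0802, 0.291 and 95.0 RPKM in letter G. The groups did not overlap, and the difference was 5.78, or 6.57 without letter G cell G-06.

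HIST1H1C of HB ran from 82.1 to 416 RPKM (median 131) in letter H and from 0 to 30.4 RPKM (median 0.131) in letter G, again without overlap (log2 4.08). HIST2H2AA4 ran from 29.5 to 148 RPKM (median 53.0) and from 0 to 18.6 RPKM (median 0.539), without overlap (3.46). HIST1H2BJ averaged 52.3 against 1.18 RPKM (4.61). The H2A gene HIST1H2AC was at 5 RPKM or more in 7 of 9 letter H cells and in 0 of 9 letter G cells, where it was at most 0.176 RPKM. The H2B genes HIST1H2BC and HIST1H2BD averaged 16.2 and 10.8 RPKM in letter H and were listed at 0 in all letter G cells.

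Members that went the other way in HB were the canonical genes HIST1H4C, HIST1H1E and HIST1H3B and the replacement genes H2AFY and H1F0. HIST1H1E and HIST1H3B were listed at 0 in letter H, and without letter G cell G-20 both dropped under the 5 RPKM mean in letter G, which left HIST1H4C. HIST1H4C averaged 14.9 RPKM in letter H, with a median of 0, against 68.0 RPKM in letter G, a log2 difference of -2.12 with overlap. It was -2.79 without letter H cell H-15, and moving the 9 cells whose stage labels conflict to HB made it -0.99. H2AFY ran from 11.2 to 163 RPKM (median 32.7) in letter H and from 237 to 636 RPKM (median 474) in letter G, with no overlap and a log2 difference of -3.03. H1F0 averaged 2.17 against 20.9 RPKM (-2.79, or -2.13 without cell G-11), with overlap. H2AFZ averaged 1654 and 1310 RPKM and H3F3B 401 and 406 RPKM, both within 2-fold.

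The hatched sums were 1738 ± 976 against 194 ± 106 RPKM for canonical (log2 3.15) and 2246 ± 675 against 2371 ± 410 RPKM for replacement genes (-0.08; SD, n = 9 each). Without HIST1H2BK and H2AFZ, the leading member of each class, these became 1.60 and -0.84. Cell type markers differed along the same line. Epiblast markers summed to 927 to 1928 RPKM in letter H and to 0.115 to 771 RPKM (median 0.665) in letter G, with NANOG at 285 to 1064 and at 0 to 1.44 RPKM. Hypoblast markers summed to 0.239 to 8.84 and 35.9 to 1330 RPKM, and trophectoderm markers to 541 to 1756 and 455 to 16460 RPKM. These sums, too, do not stand for each marker. GATA2 was at most 13.2 RPKM in letter H. In letter G it was at 5.83 RPKM in cell G-14 and between 140 and 735 RPKM in the other cells. GATA4 was at 242 RPKM in cell G-14 and under 1 RPKM in every other hatched cell. The part of these markers in the histone result was not tested, and in such cells a difference of cell type and a difference of letter cannot be told apart.

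**Figure D4:**
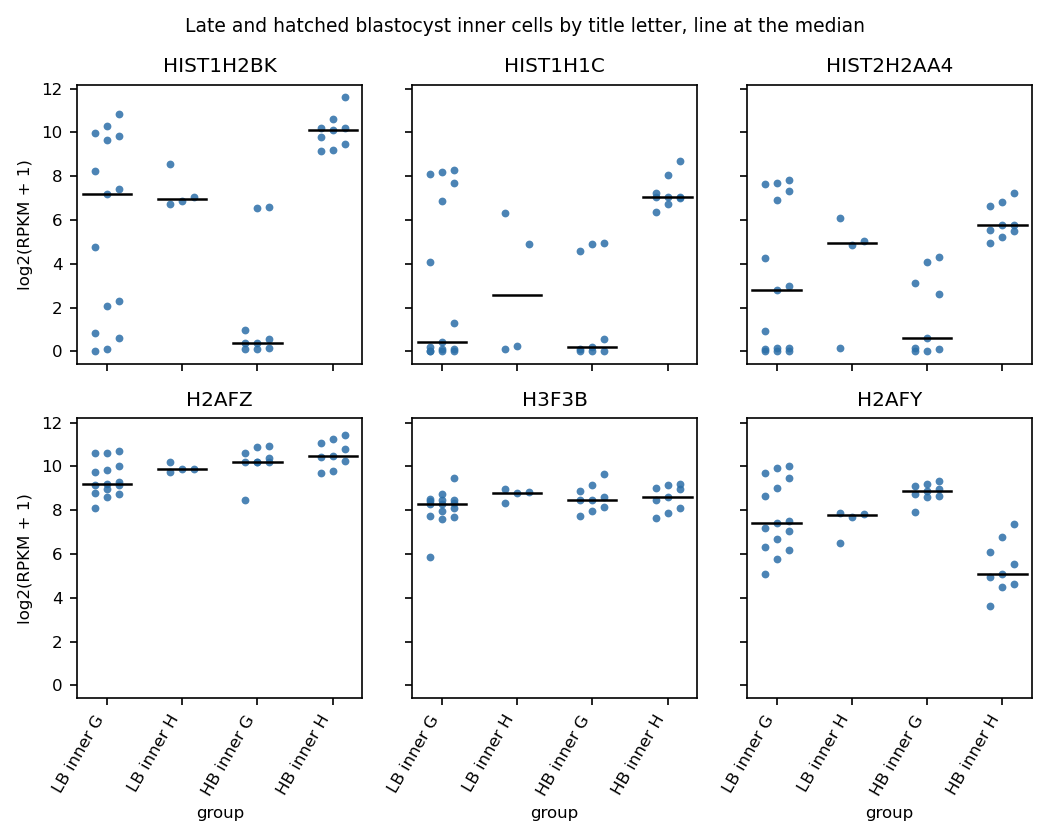
Levels of HIST1H2BK, HIST1H1C, HIST2H2AA4, H2AFZ, H3F3B and H2AFY, as log2(RPKM + 1), in each inner cell of LB and HB by letter, with a line at the median. HIST1H2BK and H2AFY separate the letters in HB in opposite directions, while H2AFZ and H3F3B overlap.

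Genes that make, carry and use histones were read from 3 lists. In HB, 6 of 18 measured replication genes were higher in letter H, beside 20.9% of all genes, and 1 was lower, beside 24.1%. PCNA, the sliding clamp of DNA polymerase, averaged 1433 against 417.5 RPKM, MCM3 of the replicative helicase 367 against 93.6 RPKM, and GINS2 of the same machine 274 against 65.7 RPKM. MCM5, MCM6 and CDC45 were the other genes called higher. The gene called lower was the cyclin gene CCNE1, which drives entry into S phase, at 73.6 against 191 RPKM. The remaining measured genes were not called. Of these, RFC4, FEN1, RRM1 and RRM2 leaned lower in letter H and the rest higher. Beside the same shares, 7 of 19 measured histone chaperone and deposition genes were higher (RBBP4, NAP1L1, YEATS4, DAXX, SUPT16H, HAT1 and INO80) and 3 lower (RBBP7, HJURP and DNAJC9).

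In LM, where inner cells held more HIST3H2A, 4 of 13 measured replication genes were higher and 4 lower in outer cells, and 3 of 19 chaperone genes were higher and 6 lower. All genes stood at 31.2% higher and 26.9% lower there, so the replication counts and the lower chaperone count were near the background. In MB, 13 of 20 chaperone genes were higher and 2 lower in letters G and H, and 8 of 17 replication genes were higher and 5 lower. The shares of all genes were 55% and 24.4%, and the higher counts of both lists lay near them.

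Genes for transcription and 3′ end processing of canonical histone mRNA were thinly covered. The list held 13 symbols, with ZNF473 also entered under its other name ZFP100, and 11 symbols were in the table. Of these, 3 to 8 were measured in EM, LM and the letter comparisons. In outer cells, 1 of 8 was higher and 0 lower in EM (all genes 16.1% and 9.12%), and 2 of 3 higher and 0 lower in LM (31.2% and 26.9%). Between letters, 4 of 6 were higher and 1 lower in EB (45% and 28.5%), 3 of 6 and 0 in MB (55% and 24.4%), 4 of 8 and 1 in LB (27.5% and 22.1%), and 1 of 7 and 0 in HB (20.9% and 24.1%). The lower genes were LSM10, of the particle that cuts histone mRNA, in EB (log2 -2.42) and CSTF2T in LB (-3.31). With so few genes measured, these counts are no result about the list. SLBP, which binds the stem-loop, is not analysed here.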

How the data were processed

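Complementary DNA of 95 single cells received a poly(A) tail, was amplified by PCR, per the labels' protocols, and was sequenced as single-end reads. The deposited table gives 1 value per gene symbol and cell and names no unit. The values were read as RPKM computed by the authors, because they hold decimals and each gene's low values are multiples of a gene step times a cell step. Reads recovered from those steps, for the 11373 genes (70.9%) whose values were whole reads within a tolerance of 0.05 in at least 95% of cells, gave the depth. TopHat2 2.1.0, HTSeq, DESeq2 and FastQC are named in the submitters' processing notes without role or order. Build and annotation are not given in the sources used here, and 29 of the 76 members have a matching name in a RefSeq gene table, used for names only.

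Group means of RPKM were compared as log2(mean + 1) with Python 3.11.15, numpy 2.4.6, pandas 2.3.3 and scipy 1.17.1, and drawn with matplotlib 3.10.9. The calculation was checked on simulated data. No test was made, as cells are not replicates. In 9 LB cells, all those of letter H and some of letter G, the source name says hatched, and the title's stage was kept. Members and gene lists were chosen with earlier results of these data known. The 6 canonical and 6 replacement members of highest mean are given most fully. Of the members 2-fold apart in the same direction in at least 2 comparisons of a kind, only a part is described. Not all of their comparisons are given. Alternatives were the pseudocount, the filter on low values, the fold, scaling, medians or depth-weighted means over cells, leaving out members, and leaving out each cell.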

Additional observations from a re-analysis of the deposited data

Results flagged for a closer look

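Within groups of 4 to 10 cells, 195 pairs of a group and a value were examined for a highest or lowest cell that stands apart from the others by Dixon's gap at the 95% level, and 24 were found. Chance gives about 1 in 20. The cells are single libraries, so a value apart from its group is a description of 1 cell.

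Sums and shares stood apart in MB inner cell G-03 (canonical sum 86.8 RPKM), MB inner cell B-06 (replacement sum 295 RPKM) and EM inner cell H-04 (canonical share 65.4%). HIST1H2BK was high in EM outer cell H-02 (1428 RPKM), MB outer cell B-06 (10.6) and MB inner cell B-03 (50.3), and low in EM inner cell H-05 (10.5). HIST3H2A was high in MB inner cell G-04 (65.7 RPKM) and HIST2H2AA4 in MB inner cell H-03 (64.5 RPKM). HIST1H1C was high in LM outer cell D-05 (202 RPKM), and also, at levels near 0, in EB inner cell A-03 (0.383) and MB inner cell B-06 (0.696). HIST1H4C stood apart in LM outer cell D-06 (32.9 RPKM) and MB inner cell B-02 (26.1), and HIST1H4H in LM inner cell D-08 (0.129), MB inner cell H-05 (125) and HB inner cell G-14 (142). Among replacement genes, H2AFZ was low in HB inner cell G-14 (355 RPKM), H3F3B in EB outer cell A-10 (48.1) and EB inner cell A-03 (5.5), and H2AFX in HB inner cell G-02 (27.0). H2AFY was low in MB outer cell B-03 (0.724 RPKM), LB inner cell H-09 (88.9) and HB inner cell G-15 (237).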

How the results depend on the processing

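No paired analysis was possible because the result comes from no test and cell numbers do not pair cells across groups. Median-of-ratios scaling moved the most values, and the cause was not tested. Canonical sums (log2) became 2.91 for LM against EM, 3.15 for MB against 16C, -0.35 for EB letters and -3.61 for MB letters, and replacement sums 0.35 for EM against 16C, 0.89 for LM against EM, 1.21 for MB against 16C, 0.30 for HB against EB letter G, -1.29 for EB letters, -0.24 for MB letters and -1.45 for LB letters. H2AFZ, H2AFV and HIST1H2BK turned to 0.26, 0.43 and 1.13 for LM against EM, H2AFZ to 0.19 for MB against 16C and H3F3B to -0.44 for EB letters. Scaling on the genes detected in every cell gave replacement sums of -0.43 (LB letters), -8.8e-04 (MB against 16C) and 0.71 (MB letters). Medians over cells gave canonical sums of -0.066 for HB against EB letter G and 0.78 for LB letters. Without H2AFX and H2AFJ, the replacement sum of MB letters was 1.92. Without the leading member of each class, canonical sums were -0.45 (HB against EB letter G), -0.47 (HB against EM letter H) and 1.60 (HB letters), and replacement sums 0.92 (EM against 16C), 0.46 (HB against EB letter G), -0.27 (HB against EM letter H), -0.84 (HB letters), 1.00 (MB letters) and -0.33 (outer against inner 16C), and shares 47.7% (16C outer), 33.0% (EB letter H) and 13.7% (HB letter G). Without HIST1H2BK, an alternative chosen after seeing the data, the HB letter H share was 20.5%. Leaving out 1 cell moved the canonical sum between -2.52 and 0.037 for HB against EB letter G and between -0.81 and 0.16 for outer against inner 16C, and to 1.70 for HB against EM letter H without inner EM cell H-04.

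Over the settings other than leaving out a cell, counts of canonical genes (higher, lower) ran over 0 to 6 and 0 to 6 for EM position, 1 and 4 to 8 for LM position, 1 to 5 and 0 to 4 for EB position, 0 to 6 and 3 to 10 for MB position, 3 to 11 and 1 to 3 for EB letters, 2 to 8 and 4 to 10 for MB letters, 0 to 5 and 1 to 12 for LB letters, and 7 to 15 and 1 to 3 for HB letters. Depth limits single genes: many canonical values of 1 cell rest on few reads, and PCR copies cannot be told apart.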

Other observations

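Within LB letter G, the histone values of single cells can be set beside NANOG, an epiblast gene, and GATA2, a trophectoderm gene. NANOG was at 1087, 308, 440, 622, 236 and 842 RPKM in cells G-02, G-06, G-09, G-14, G-18 and G-20, and HIST1H2BK in the same cells at 1021, 806, 1838, 903, 304 and 1240 RPKM. In the other 9 cells NANOG was at most 0.856 RPKM and HIST1H2BK at most 168 RPKM (cell G-12), followed by 146 RPKM in cell G-23. GATA2 was at 936, 769, 349, 700 and 422 RPKM in cells G-03, G-04, G-16, G-22 and G-27, where HIST1H2BK was at 0.0628, 0, 3.22, 0.770 and 26.7 RPKM. By source name, the cells with these GATA2 values were hatched, while the other LB letter G cells were not. High GATA2 and that stage label therefore cannot be told apart in this group. The canonical share of the cells G-02, G-06, G-09, G-14, G-18 and G-20 was 52.2%, 54.3%, 61.5%, 46.0%, 39.9% and 51.8%, and no other LB letter G cell was over 18.6%. In LB letter H, by contrast, cell H-15 had NANOG at 610 RPKM with HIST1H2BK at 117 RPKM and a share of 7.70%, beside 1208 and 373 RPKM and 27.0% in cell H-03. These values were picked out after they had been seen, cells of 1 group share title stage, letter and possibly embryo, and no test was made.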
